A study of Sus scrofa with 6 samples.

Results

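Genes of protein folding in the endoplasmic reticulum (ER) were lower with vitamin C in cells labelled as immature Sertoli cells of the fetal pig testis. The set described here holds 46 genes in 5 classes: chaperones and lectins, disulfide formation, translocon and signal peptidase, ER-associated degradation, and stress sensors with the factor XBP1. Members were taken by gene symbol from the deposited count table of 17670 genes, and 44 of the 46 had a row. SDF2L1 and DERL1 were not analysed here. Of the 44, 42 had enough counts to be tested, and SYVN1 and DERL3 did not.

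Secreted and membrane proteins enter the ER through the SEC61 channel, lose their signal peptide to signal peptidase, and fold with the help of chaperones, sugar-binding lectins and protein disulfide isomerases. Proteins that do not fold are drawn back into the cytosol and destroyed, a route called ER-associated degradation. The sensors IRE1, ATF6 and PERK adjust the amount of this machinery to the load, and this adjustment is the unfolded protein response. Sertoli cells, the nurse cells of the seminiferous tubule, secrete many glycoproteins, and collagen chains made in the ER are hydroxylated there by enzymes that use ascorbate.

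The comparison asked how the transcriptome of the cultured cells differed after AA2P (L-ascorbic acid 2-phosphate), a vitamin C derivative that is stable in culture. Cells came from testes at 80 to 90 days of gestation and grew in minimum essential medium with 10% fetal bovine serum and 1% antibiotic. Control cells (3 libraries) and cells given 250 µM AA2P (3 libraries) shared this medium, and AA2P was added after 6 h of culture. How long the treatment lasted and how many animals were used is not stated in the labels. The labels do not tell whether the 3 libraries of each group are separate cultures or animals; p-values therefore cover only the variation among these samples, and that variation may be technical.

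Library totals ran from 18747307 to 23521291 counts. Levels are in CPM, counts relative to library size, after TMM factors that correct for differences in library composition. Where a gene has 0 counts in a library, its level could still be up to 3 counts, which is 0.123 to 0.165 CPM and covers counting error only. AA2P library 3 lay nearest the controls, with a mean correlation of log2 CPM to them of 0.970 across genes, against 0.959 and 0.961 for AA2P libraries 1 and 2. Of 14 Sertoli markers 10 had a row and 6 were tested, of which 5 fell. The summed level of the 10 was 4485 to 4816 CPM in controls and 1335 to 1910 CPM with AA2P, and most of it was CLU, the secreted chaperone clusterin. Without CLU the other 9 summed to 449 to 478 CPM and 258 to 315 CPM. Most of that remainder was KRT18, at a mean of 372 CPM in controls and 218 CPM with AA2P. SOX9, a Sertoli transcription factor, was at 11.6 ± 0.647 and 2.22 ± 0.459 CPM (SD, n = 3), WT1, another, at 40.7 ± 4.21 and 23.8 ± 4.20 CPM, and AMH, the Müllerian inhibitor, at 36.4 ± 1.52 and 34.4 ± 2.35 CPM. INHA was at or under 1 count in every library. DHH, NR5A1 and AMHR2 reached at most 0.149, 0.275 and 0.594 CPM in any library and, like INHA, were not tested. GATA4 and FSHR were not analysed here. All 8 kidney tubule markers with a row rose, with summed levels of 363 to 419 CPM in controls and 1164 to 1518 CPM with AA2P. Summed levels in controls and with AA2P were 413 to 419 and 293 to 345 CPM for 6 myoid markers, 5.58 to 5.84 and 6.36 to 7.38 CPM for 3 Leydig markers, and 2.03 to 2.86 and 6.08 to 8.02 CPM for 2 endothelial markers. They were 0.766 to 1.55 and 5.09 to 5.81 CPM for 4 macrophage markers, where AIF1 was the only one tested and CD68 was at 0.315 to 0.388 and 0.149 to 0.200 CPM, and 0.386 to 0.437 and 0.149 to 0.411 CPM for 2 germ cell markers. Most of the myoid sum was TAGLN, at a mean of 375 CPM in controls and 307 CPM with AA2P. DES was at 39.1 and 8.35 CPM, and CNN1 went the other way, at 0.595 and 1.17 CPM. ACTA2, MYH11 and PDGFRB reached at most 0.495 CPM in any library and were not tested. Most of the Leydig sum was STAR, at 5.70 and 6.68 CPM, and most of the endothelial sum was PECAM1, at 2.25 and 6.97 CPM. CYP17A1 of Leydig cells reached at most 0.0495 CPM, DDX4 of germ cells 0.287 CPM and CSF1R of macrophages 0.0970 CPM in any library. The part of these shifts in the results below was not tested, and in bulk RNA fewer cells of a type cannot be told apart from less RNA per cell.

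Of the 42 tested members, 36 fell and none rose with AA2P. A gene was called at an adjusted p under 0.05 (edgeR quasi-likelihood F test, p-values adjusted by Benjamini-Hochberg over the 12701 genes tested). The share of members called lower was 85.7%. As background, 26.1% of all genes tested were called lower and 26.0% higher, 52.1% in all. The members were chosen with earlier results of these data known, so this contrast is a description. No member was higher at an unadjusted p under 0.05 by edgeR, by DESeq2 or by limma-voom either. The median log2 fold change of the members was -0.42, with quartiles of -0.62 and -0.28, beside a median of 0.00 and quartiles of -0.21 and 0.24 over all genes tested. Most of the changes were modest in size. A fall of at least 1.5-fold was called in 13 of the 42 tested members, against 7.97% of all genes tested. The members ranged from 2.19-fold lower (PDIA5) to a log2 difference of 0.04 (SPCS1). In 38 of the 42 members the 3 AA2P libraries all lay under the 3 control libraries, against 29.5% of all genes tested. In none did they all lie above, against 29.8%. With library totals the AA2P libraries all lay under the controls in 30 members, against 15.8% of all genes, and all above them in 1 (TXNDC11), against 48.6%.

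**Figure D1:**
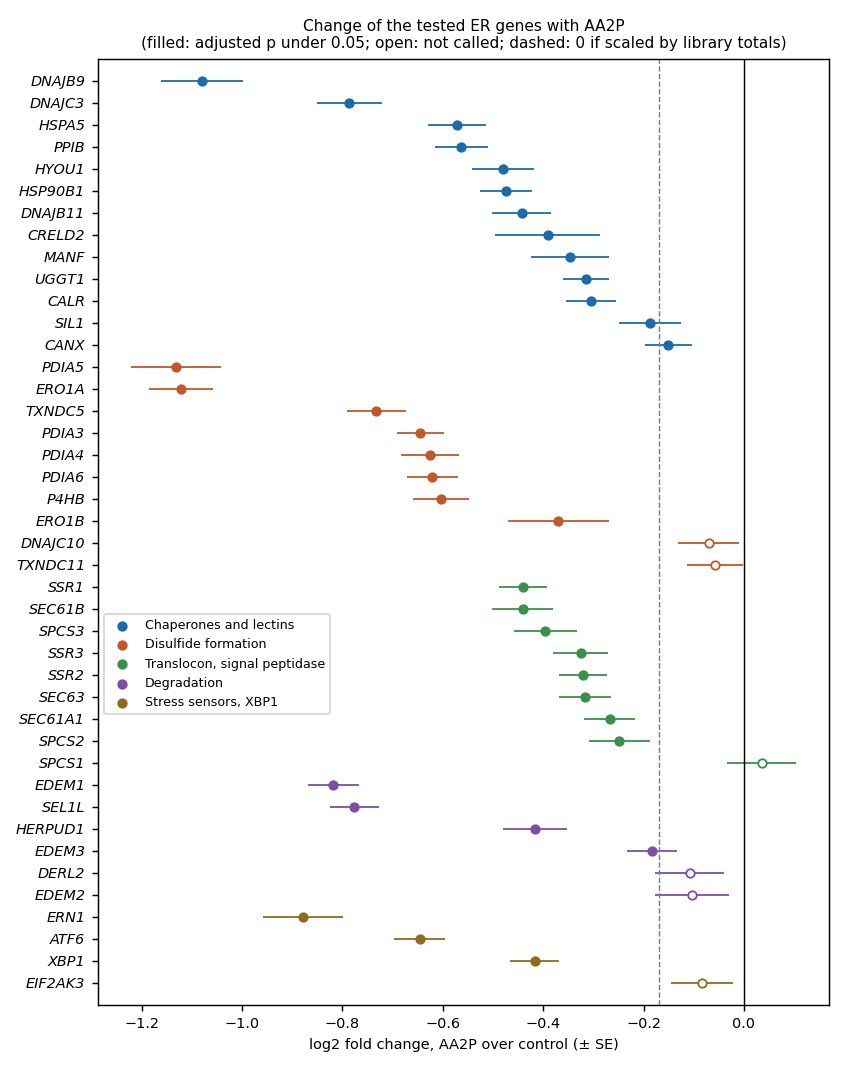
Log2 fold change of each of the 42 tested ER genes with AA2P over control (x axis, bars are standard errors), by class. Filled points passed the adjusted p of 0.05 and open points did not. PDIA5, ERO1A and DNAJB9 lie furthest to the left, at -1.13, -1.12 and -1.08, and the dashed line marks where 0 would lie with library totals.

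How large these falls are depends on scaling. If each library is divided by its total alone, without TMM factors, the median log2 fold change of all genes is higher by 0.17. The members called were then 28 lower and 1 higher (SPCS1), beside 14.4% lower and 45.0% higher over all genes, and the members' median was -0.25. Differences in level below are relative to the TMM scaling. Without AA2P library 3 the count was again 36 lower and 0 higher, beside 26.8% of all genes lower and 26.8% higher.

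The share of a library's counts that fell on the 44 genes uses library totals and no TMM factor. It was 1.32%, 1.36% and 1.37% in control libraries 1 to 3 and 1.09%, 1.08% and 1.14% in AA2P libraries 1 to 3. The groups did not overlap, and the AA2P mean was lower by 0.244 percentage points. Disulfide genes took 0.333% ± 0.00427 of counts in controls and 0.248% ± 0.00558 with AA2P (SD, n = 3), the largest ratio of the 5 classes at 1.34. The ratio was 1.31 for both the degradation genes and the sensors, 1.18 for chaperones and 1.11 for the translocon. Each of these 6 comparisons gave a two-sided exact permutation p of 0.1, adjusted 0.1, which is the smallest that 3 against 3 libraries can give.

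**Figure D2:**
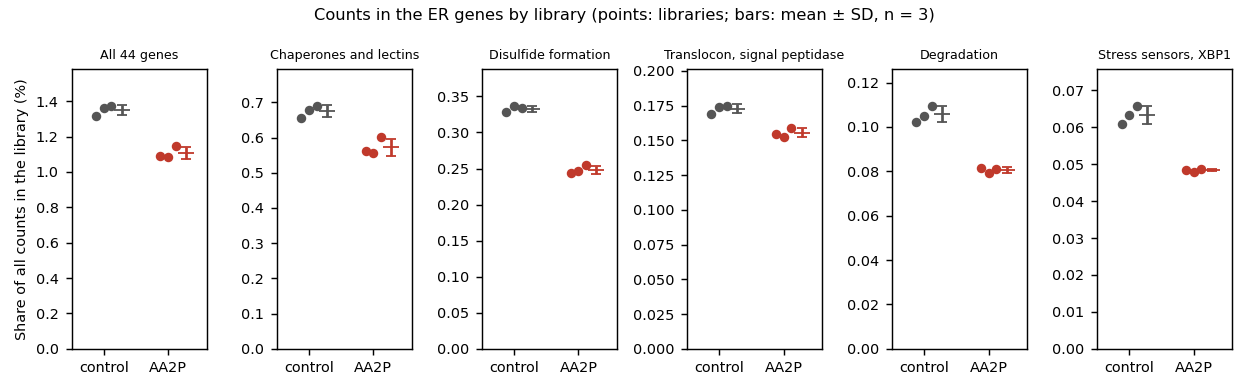
Share of all counts in each library (y axis, percent) that fell on the 44 ER genes and on each class, in control (grey) and AA2P (red) libraries. Points are libraries and bars are the mean ± SD of 3. In each panel the 3 AA2P libraries lie under the 3 controls, as for all 44 genes at 1.08% to 1.14% against 1.32% to 1.37%.

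All 13 tested chaperones and lectins fell, with a median log2 fold change of -0.44. The leading gene was DNAJB9 (ENSSSCG00000016653), which encodes ERdj4, a J-domain partner of the chaperone BiP. Its levels were 42.6, 49.1 and 48.2 CPM in controls and 23.1, 19.4 and 23.5 CPM with AA2P. The groups lay far apart, and the gene fell 2.11-fold (log2 fold change -1.08, SE 0.08, edgeR adjusted p 1.2e-08). DNAJC3, which encodes the BiP cofactor p58IPK, had 229, 240.3 and 263 CPM in controls and 139.8, 130.5 and 154 CPM with AA2P, a fall of 1.72-fold (edgeR adjusted p 3.3e-08). AA2P library 3 was the highest of its group for both genes, although still well under the controls.

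BiP itself, encoded by HSPA5 (ENSSSCG00000005601), is the central Hsp70 chaperone of the ER lumen and holds the stress sensors inactive. It measured 1222, 1332 and 1322 CPM in controls and 838, 827 and 943 CPM with AA2P, 1.49-fold lower with an edgeR adjusted p of 3.6e-07. HSP90B1, which encodes the ER Hsp90 protein GRP94, was at 1395, 1412 and 1450.3 CPM in controls and at 997, 972 and 1094 CPM with AA2P, 1.39-fold lower. The groups were apart for both. HYOU1, an exchange factor of BiP, fell 1.39-fold from 599 ± 10.6 to 429 ± 44.3 CPM (SD, n = 3), and DNAJB11 (ERdj3), another BiP cofactor, 1.36-fold from 68.0 ± 2.80 to 50.0 ± 1.95 CPM. SIL1, also an exchange factor of BiP, fell less, by 1.14-fold to 36.2 ± 1.64 CPM. MANF and CRELD2, secreted proteins of ER stress, fell 1.27-fold and 1.31-fold to 40.9 ± 3.27 and 16.2 ± 2.00 CPM.

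The lectin cycle, in which calnexin and calreticulin hold glycoproteins and UGGT1 tags those not yet folded, changed by smaller steps. CALR, the soluble lectin calreticulin, had 1415, 1451 and 1449 CPM in controls and 1109, 1147 and 1238 CPM with AA2P. The lowest control stood above the highest AA2P library, and CALR fell 1.23-fold (edgeR adjusted p 8.8e-05). CANX, the membrane-bound lectin calnexin, had 857, 868 and 909.9 CPM against 801, 768 and 804 CPM, groups apart but close, and fell 1.11-fold. UGGT1 fell 1.24-fold from 827 ± 26.4 to 665 ± 11.2 CPM (SD, n = 3). PPIB, the ER cyclophilin B, which isomerises proline bonds and works with collagen, had 229, 247 and 224 CPM in controls and 153, 156 and 164 CPM with AA2P, a fall of 1.48-fold. AA2P library 3 was the highest of its group in 12 of the 13 genes of this class (UGGT1 was the exception), and in 25 of all 36 members called lower, or 69.4%, beside 53.4% of all genes called lower.

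Calls at the small end of this class were not firm. With library totals 9 of the 13 were called lower; MANF, CRELD2 and SIL1 missed the threshold and CANX changed sign, to a log2 fold change of 0.018. CANX also missed it without control library 3 (-0.13) and without AA2P library 2 (-0.13). SIL1 missed it without control library 2 (-0.18), AA2P library 1 (-0.16) or AA2P library 2 (-0.18).

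**Figure D3:**
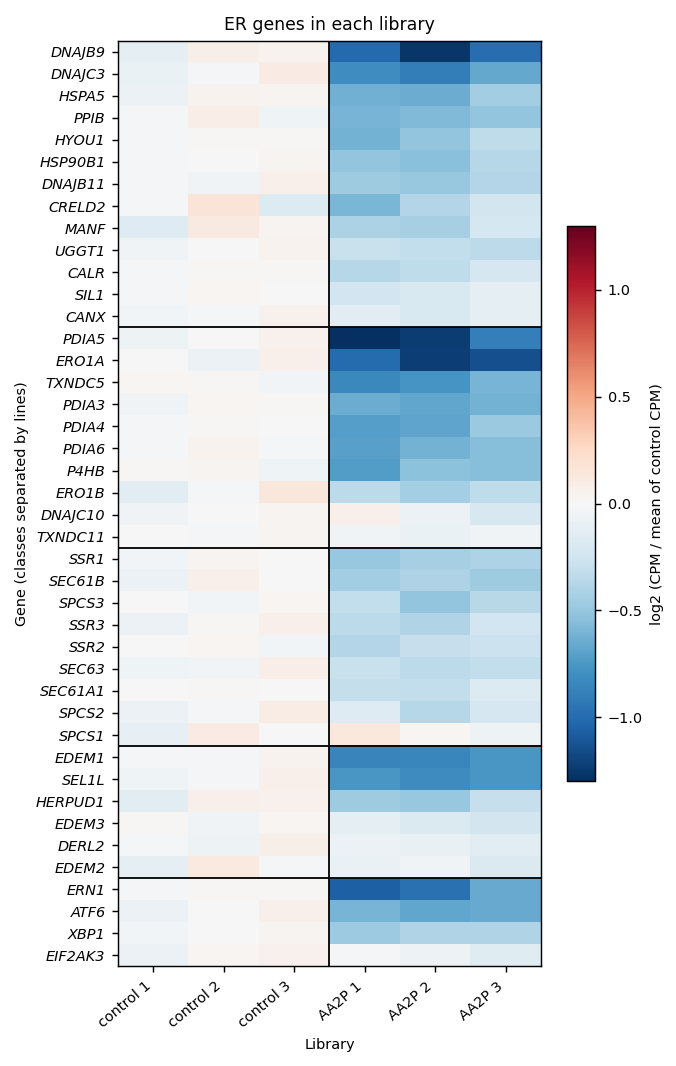
Log2 ratio of the CPM in each library (columns) to the mean of the 3 controls for the 42 tested ER genes (rows, with lines between the classes from chaperones at the top to sensors at the bottom). Blue is lower than the control mean; AA2P library 3 is paler than AA2P libraries 1 and 2 in many rows, such as PDIA5 at 32.9 CPM against 24.2 and 25.9 CPM.

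Disulfide genes had the lowest class median, with 8 of 10 members lower and a median log2 fold change of -0.62. Of the 13 falls of at least 1.5-fold, 7 were in this class. ERO1A (ENSSSCG00000005037), the oxidase that recharges protein disulfide isomerase and a known target of hypoxia-inducible factor, had the smallest p of all members. It was at 112, 107 and 118 CPM in controls and at 56.0, 47.9 and 50.9 CPM with AA2P. The highest AA2P library lay far under the lowest control, and ERO1A fell 2.18-fold (log2 fold change -1.12, SE 0.06, edgeR adjusted p 4.0e-10). ERO1B, the related oxidase known from secretory tissues, had 13.0, 14.2 and 16.0 CPM in controls and 11.4, 10.5 and 11.4 CPM with AA2P. It fell 1.29-fold (edgeR adjusted p 0.0054), and with library totals it missed the threshold.

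The protein disulfide isomerases, which form and reshuffle disulfide bonds in folding proteins, fell together with few exceptions in the class. PDIA3 (ERp57), the isomerase that works with the lectins, had 1173, 1227 and 1225 CPM in controls and 775, 756 and 788 CPM with AA2P, a fall of 1.56-fold with an edgeR adjusted p of 6.8e-09. PDIA5 had 58.2, 61.0 and 63.4 CPM in controls and 24.2, 25.9 and 32.9 CPM with AA2P, a fall of 2.19-fold. TXNDC5 (ERp46) had 157, 156 and 150.0 CPM in controls and 86.6, 90.4 and 101 CPM with AA2P, a fall of 1.66-fold. For each of these genes all controls stood clear of all AA2P libraries. PDIA4 and PDIA6 fell 1.54-fold each, to 400.4 ± 36.1 and 228 ± 11.8 CPM (SD, n = 3). P4HB, the archetypal isomerase and also the beta subunit of the collagen prolyl hydroxylases, fell 1.52-fold from 712 ± 23.9 to 469 ± 34.2 CPM.

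DNAJC10 and TXNDC11 did not pass the test. DNAJC10 (ERdj5), a disulfide reductase that acts on proteins bound for degradation, was at 249.5 ± 7.10 CPM in controls and 238 ± 22.5 CPM with AA2P (SD, n = 3), and AA2P library 1 at 261 CPM was above every control. Without that library its log2 fold change was -0.14 in place of -0.07 and the gene was called lower. TXNDC11, a thioredoxin-domain membrane protein, was at 50.1 ± 1.11 and 48.1 ± 0.857 CPM. With library totals both had positive values, 0.10 and 0.11, that did not pass.

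Among 9 translocon and signal peptidase genes 8 fell, with a median log2 fold change of -0.32 and none by 1.5-fold. SSR1, SSR2 and SSR3 encode subunits of the translocon-associated complex that helps some signal sequences to open the channel. SSR1 had 363, 382 and 371 CPM in controls and 264, 275 and 282 CPM with AA2P, a fall of 1.36-fold (edgeR adjusted p 9.4e-07). SSR2 had 386, 391 and 374 CPM against 295, 311 and 316 CPM, a fall of 1.25-fold, and SSR3 fell 1.25-fold to 147 ± 7.42 CPM (SD, n = 3). In all of them the AA2P libraries were the lower ones without overlap.

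At the RNA level, the members that encode the SEC61 channel were also lower. SEC61B, its beta subunit, had 46.8, 51.5 and 49.2 CPM in controls and 35.9, 37.1 and 35.6 CPM with AA2P, a fall of 1.36-fold (edgeR adjusted p 1.4e-05). SEC61A1, the pore-forming subunit, fell 1.20-fold to 312 ± 17.8 CPM, and SEC63, which couples the channel to BiP, fell 1.25-fold to 158 ± 2.46 CPM (SD, n = 3). The signal peptidase genes differed among themselves. SPCS3 had 55.3, 54.0 and 56.3 CPM in controls and 44.2, 38.6 and 43.0 CPM with AA2P, a fall of 1.32-fold, and SPCS2 fell 1.19-fold to 138 ± 9.89 CPM. SPCS1 was at 50.5 ± 3.66 and 51.7 ± 3.63 CPM, with overlapping groups and an edgeR adjusted p of 0.70. With library totals SEC61A1 and SPCS2 missed the threshold and SPCS1 was called higher, at 0.20. The sign of SPCS1 was negative without control library 1 or AA2P library 1, at -0.019 and -0.017.

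Degradation genes went apart: 4 of 6 tested members fell and the other 2 did not pass, with a median log2 fold change of -0.30. EDEM1 (ENSSSCG00000034197), a mannosidase-like protein that picks out misfolded glycoproteins, had 179.8, 181 and 189.8 CPM in controls and 101, 102 and 109 CPM with AA2P. SEL1L, the adaptor of the HRD1 ubiquitin ligase, had 487, 499 and 526 CPM in controls and 299, 286 and 298 CPM with AA2P. Both showed tight groups far apart, and they fell 1.76-fold and 1.71-fold with edgeR adjusted p-values of 1.4e-09 each. HERPUD1, a stress-induced membrane protein of the same ligase complex, had 153, 176 and 174 CPM in controls and 122, 119 and 136 CPM with AA2P, a fall of 1.33-fold.

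The relatives of EDEM1 moved less. EDEM3 had 205, 197 and 206 CPM in controls and 186, 178 and 172 CPM with AA2P, groups apart by a small margin, and fell 1.14-fold (edgeR adjusted p 0.0051), but with library totals its log2 fold change was -0.01 and it missed the threshold. EDEM2 had 30.8, 36.4 and 32.9 CPM in controls and 31.5, 32.2 and 29.3 CPM with AA2P, which overlap, with an edgeR adjusted p of 0.26. DERL2, a derlin of the channel that draws proteins out of the ER, had 28.2, 27.2 and 29.9 CPM in controls and 26.9, 26.5 and 25.7 CPM with AA2P. Its groups did not overlap, but the difference did not pass (edgeR adjusted p 0.21), and the signs of EDEM2 and DERL2 were positive with library totals (0.066 and 0.061). DERL3, a derlin of secretory tissues, had 1, 6 and 1 counts in controls and 5, 7 and 4 with AA2P, too few to test. SYVN1, which encodes the HRD1 ligase that SEL1L serves, was listed at 0 in 5 libraries and at 1 count in AA2P library 2. Whether the deposited row covers the whole SYVN1 gene was not tested, so its level is not read as a result.

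Of the sensor genes 3 of 4 fell. ERN1, which encodes the sensor kinase and RNase IRE1, had 84.0, 86.6 and 86.3 CPM in controls and 41.1, 43.8 and 54.4 CPM with AA2P, a fall of 1.84-fold (log2 fold change -0.88, SE 0.08, edgeR adjusted p 1.2e-07). ATF6, a membrane-tethered transcription factor released by cleavage, had 340.0, 357 and 375 CPM in controls and 234, 223 and 227 CPM with AA2P, a fall of 1.56-fold. XBP1, whose messenger RNA IRE1 splices into the active form, had 173, 178 and 182 CPM against 128, 136 and 135 CPM, a fall of 1.34-fold. For these genes no AA2P library reached the lowest control, and gene counts do not show which form of XBP1 was present. EIF2AK3, which encodes the sensor kinase PERK, had 48.7, 52.3 and 53.5 CPM in controls and 50.5, 49.1 and 46.2 CPM with AA2P. These groups overlapped (edgeR adjusted p 0.27), and with library totals its log2 fold change was 0.086 in place of -0.08.

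Ratios of counts between related members within a library do not depend on the scaling. Of 10 pairs chosen, 6 had both genes tested, and some pairs share a gene. The log2 ratio of ERO1A to ERO1B was 3.11, 2.91 and 2.88 in controls and 2.30, 2.18 and 2.16 with AA2P, a difference of -0.75. EDEM1 to EDEM2 gave 2.55, 2.31 and 2.53 against 1.68, 1.66 and 1.89, and EDEM1 to EDEM3 -0.19, -0.13 and -0.12 against -0.87, -0.80 and -0.66. The differences were -0.72 and -0.64, so EDEM1 lost ground to both relatives without overlap between the groups. The ratio of EDEM2 to EDEM3 overlapped, at -2.61 ± 0.15 and -2.53 ± 0.05 (SD, n = 3). Small shifts without overlap were seen for CALR to CANX, -0.16, and for HSPA5 to HSP90B1, -0.10. Their groups nearly touched. For CALR to CANX, control library 3 was at 0.67 and AA2P library 3 at 0.62. For HSPA5 to HSP90B1, control library 1 was at -0.19 and AA2P library 3 at -0.21. How often the ratios of other gene pairs separate in this way was not tested. The two-sided exact permutation p was 0.1, the smallest that 3 against 3 can give, for all pairs but EDEM2 to EDEM3 (exact p 0.5), and adjusted over the 6 pairs the values were 0.12 and 0.5.

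**Figure D4:**
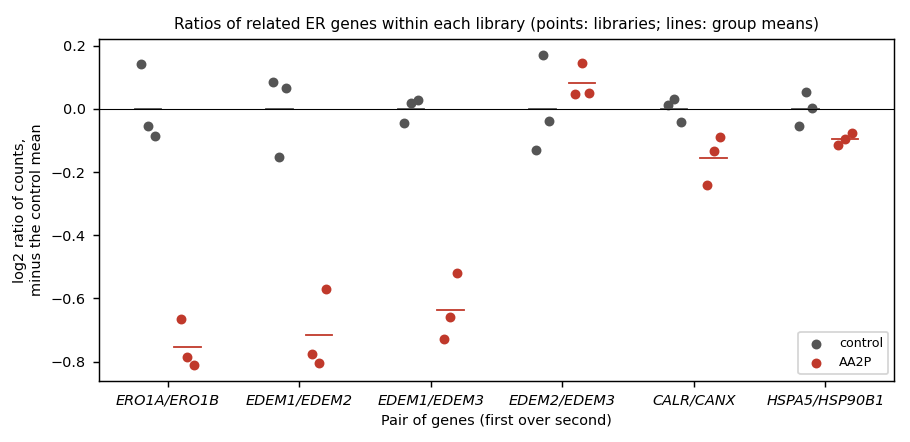
Log2 ratio of counts of the first gene to the second in each library, minus the mean of the controls (y axis), for 6 pairs of related ER genes. Points are libraries and short lines are group means. ERO1A to ERO1B and both EDEM1 pairs lie lower with AA2P by 0.64 to 0.75, and the EDEM2 to EDEM3 groups overlap.

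Other genes of the secretory pathway, in 6 lists that hold no member, were counted in the same way. These lists, like the members, were chosen with earlier results of these data known. Of their 113 tested genes 61 fell (54.0%) and 7 rose (6.19%), with a median log2 fold change of -0.17. Over all genes tested the shares were 26.1% lower and 26.0% higher. With library totals 30 fell and 23 rose, so the share of lower calls went from 89.7% to 56.6%, where over all genes it went from 50.1% to 24.2%.

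In 4 of these lists, grouped here by outcome, most tested genes fell and none rose. Over all genes tested, 26.1% were lower and 26.0% higher. In N-glycosylation, which attaches and trims the sugar tree that the lectins read, 13 of 15 genes fell, none rose, and the median was -0.38. OSTC, a subunit of the oligosaccharyltransferase, fell 1.56-fold from 72.7 ± 2.93 to 46.6 ± 2.45 CPM (SD, n = 3), and UGGT2, the relative of UGGT1, 1.47-fold to 89.2 ± 2.50 CPM. Of 20 other ER folding genes 13 fell and none rose; TXNDC12, a thioredoxin-like protein, fell 1.71-fold to 66.4 ± 2.80 CPM, and PRDX4, an ER peroxiredoxin, by 0.58 on the log2 scale to 69.0 ± 0.492 CPM. In export from the ER 12 of 18 fell and none rose, among them SEC24D, a cargo adaptor of the COPII coat, 1.63-fold to 137 ± 7.88 CPM, and MCFD2, a cargo receptor subunit, 1.54-fold to 98.3 ± 5.16 CPM. Of 14 other genes of stress signalling 9 fell and none rose. CREB3L1, an ER-tethered transcription factor of matrix secretion, fell 2.62-fold to 77.9 ± 26.7 CPM, and TMBIM6, an ER membrane protein that restrains IRE1, fell 1.52-fold to 300.0 ± 10.8 CPM. Without AA2P library 3, 12 folding genes were called lower and 1 higher, TMX4, a membrane thioredoxin, at a log2 fold change of 0.16. With all libraries in these 4 lists no gene was higher at an unadjusted p under 0.05 by edgeR, DESeq2 or limma-voom. With library totals 7, 7, 6 and 4 fell and 0, 3, 2 and 2 rose, in the order N-glycosylation, folding, export and signalling. The shares over all genes were then 14.4% lower and 45.0% higher.

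The other lists, of targeting and of further degradation genes, had calls in both directions. Of 24 further genes of targeting and insertion 6 fell (25%) and 3 rose (12.5%), with a median of -0.07. Over all genes tested, 26.1% fell and 26.0% rose, so the lower share of this list was near that background. SRP9, a part of the signal recognition particle, fell 1.40-fold to 33.1 ± 3.16 CPM (SD, n = 3), and SSR4, the remaining translocon-associated subunit, fell 1.23-fold to 159 ± 8.67 CPM. TRAM2, a translocon-associated membrane protein, rose 1.31-fold to 144 ± 3.02 CPM, and GET3, the ATPase of tail-anchored protein insertion, rose 1.26-fold to 102 ± 3.49 CPM. Of 22 further degradation genes 8 fell (36.4%) and 4 rose (18.2%), with a median of -0.02. The deubiquitinase ATXN3 fell 2.61-fold to 57.5 ± 3.39 CPM. NGLY1, which strips sugars from retrotranslocated proteins, rose 1.44-fold to 225 ± 14.6 CPM, and the ligase RNF5 rose 1.19-fold to 46.3 ± 1.29 CPM. With library totals these lists had 3 lower and 7 higher, and 3 lower and 9 higher, beside 14.4% lower and 45.0% higher over all genes. Without AA2P library 3 they had 8 lower and 4 higher, and 6 lower and 5 higher. Whether the classes of members differ from these lists was not tested.

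**Figure D5:**
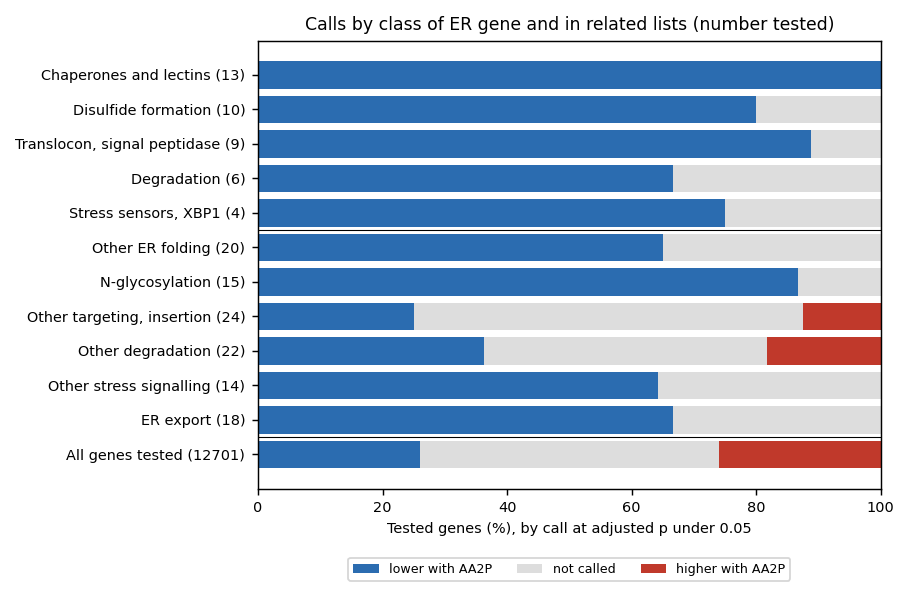
Share of tested genes (x axis, percent) called lower (blue), not called (grey) or called higher (red) with AA2P, for the 5 classes of ER genes (top), 6 related lists (middle) and all genes tested (bottom), with the number tested in brackets. Blue fills 66.7% to 100% of each class, and red appears only in other targeting, other degradation and all genes; with library totals 1 translocon gene and several genes of 3 more lists are also called higher.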

How the data were processed

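RNA of 3 control and 3 AA2P libraries was sequenced on a HiSeq X-Ten, according to the labels' protocols. Tools named are bcl2fastq and HISAT2 2.0.5, per the submitters' processing notes. For the counting tool, strand setting, annotation and genome build the answer is not given in the sources used here, so overlapping genes and near-identical copies are uncertain, and no coordinates are printed. The deposited values are raw gene counts in whole numbers, made by the authors and not normalized. Symbols were found for 13141 of 17670 identifiers in a table of gene names.

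Genes were tested in R 4.3.3 with edgeR 4.0.16 (quasi-likelihood F test, TMM, filterByExpr, group alone, Benjamini-Hochberg). The common biological coefficient of variation was 5.49%. Standard errors were taken as |log2 fold change| divided by the root of F. The fit was tested on simulated data with 200 genes changed. It recovered 37 of 49 genes at an absolute log2 fold change of 0.5 and 46 of 49 at 1. At 2 and at 3 it recovered 50 of 50, and 9 of all 192 calls were false. In the data 52.1% of genes were called, so the simulation does not show how the fit behaves when so many genes change.

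Alternatives were DESeq2 size factors, library totals, no filter, a minimum of 1 CPM in 3 libraries, limma-voom (limma 3.58.1), the Wald test of DESeq2 1.42.0, the replicate block and each library left out. All members are named, with values per library for up to 4 called members a class by smallest p and for the pairs. From each related list up to 2 called genes in each direction were named by smallest p. A gene that this rule names is not reported here. The members and lists were chosen with earlier results of these data known. CLU, KRT18, DHH, NR5A1, AMHR2, TAGLN, DES, CNN1, ACTA2, MYH11, PDGFRB, STAR, PECAM1, AIF1, CD68, CYP17A1, DDX4, CSF1R and TMX4 were chosen after their values were seen.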

Additional observations from a re-analysis of the deposited data

How the results depend on the processing

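The 36 members called lower were 36 as well with DESeq2 size factors, no filter, 1 CPM in 3 libraries, the DESeq2 Wald test, limma-voom and the replicate block, and 34 to 36 with 1 library left out. With 1 library left out 2845 to 3437 genes were lower and 2869 to 3438 higher, the related lists had 52 to 63 lower and 5 to 10 higher, and the share on the members differed by -0.264 to -0.232 percentage points. Over all 13 alternatives 28 of the 36 kept their call. With library totals the genes called were 1824 lower and 5720 higher against 3313 and 3302, the members called higher were 1 against 0, and the related lists had 30 lower and 23 higher against 61 and 7. With library totals the log2 fold changes of CANX (0.018), DERL2 (0.061), EDEM2 (0.066), DNAJC10 (0.10), TXNDC11 (0.11) and EIF2AK3 (0.086) changed sign. With 1 library left out SPCS1 ranged from -0.019 (without control replicate 1) to 0.088 (without AA2P replicate 3), and was -0.017 without AA2P replicate 1. With TMM effective library sizes the share of counts on the members differed by -0.389 percentage points against -0.244.

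Replicate numbers did not pair the libraries: same-numbered libraries had deviations from the group means correlated at -0.04, -0.02 and -0.06. With the replicate block 3110 genes were lower and 3094 higher, and the count of members called stayed at 36 lower and 0 higher. Adding 0.5 counts to the pair ratios changed no direction. The planned search of promoters and proteins was not run, since no sequences were used here. Depth limits DERL3, with at most 7 counts in a library.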
